A study of Mus musculus with 2 samples.

Results

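The Ptgds Pi15 Eln Pdlim3 stromal cells were 400 cells from the gonadal fat of aged male mice, chosen for a high score over 4 genes, Ptgds, Pi15, Eln and Pdlim3. They came from 17404 deposited barcodes, of which 7010 passed the filters that defined the cells compared here (the gate). The study sorted CD31- CD45- cells of gonadal adipose tissue into a tdTomato-positive (Tom+) and a tdTomato-negative (Tom-) fraction and sequenced each as 1 droplet library, to compare adipocyte progenitor cells with high and low p16. All mice carried p16-CreERT2/R26-LSL-tdTomato, were 18 months old and had received tamoxifen, so tdTomato marks cells in which the p16 promoter drove the recombinase at the time of injection, and cells derived from them. How many mice were pooled for each library was not given in the sources used here, and with 1 library per condition no difference between the fractions could be tested. The Tom+ library held 5566 barcodes with 61119807 UMIs (unique molecular identifiers, each counting 1 captured RNA molecule), and the Tom- library 11838 barcodes with 96872394 UMIs.

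Elastic fibres are made of elastin laid down on a scaffold of microfibrils and cross-linked by lysyl oxidases, and they let a tissue stretch and recoil. Eln encodes elastin. Ptgds encodes lipocalin-type prostaglandin D synthase, which turns prostaglandin H2 into prostaglandin D2. Pi15 encodes a secreted peptidase inhibitor of the CAP superfamily, and Pdlim3 encodes a protein with a PDZ and a LIM domain that binds alpha-actinin on actin filaments. In fat, the stroma between adipocytes holds Pdgfra-positive fibroblasts and adipocyte progenitors, which make most of the collagen matrix, and the walls of blood vessels hold pericytes and smooth muscle cells.

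The gate kept cells with 1001 to 6999 genes, a mitochondrial share under 8%, fewer than 5 UMIs of 5 mesothelial genes, under 1% of UMIs from 4 immunoglobulin genes, fewer than 3 UMIs of Calca and Ncam1 and fewer than 10 of Pi16 and Dpp4. The score of a cell was the mean natural log of 1 plus UMIs per 10000 over the 4 genes. It ran from 1.15002 in the lowest member to 2.94 in the highest, with a median of 1.43 in members and 0.284 in the rest of the gate. There was no gap at the threshold. The highest cell outside scored 1.14827, 50 members lay within 0.05 above the lowest member, and 53 cells lay within 0.05 below it, so the members are the upper end of a continuous range.

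**Figure D1:**
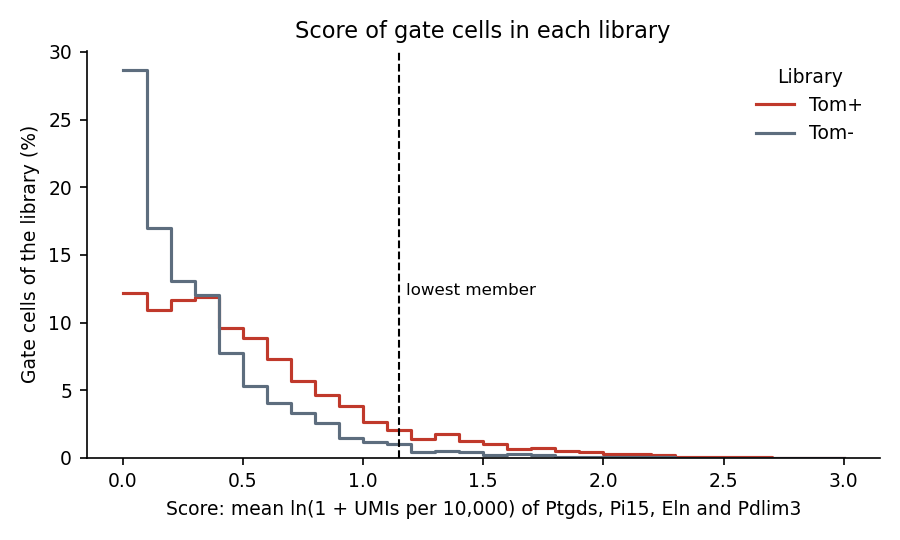
Score of the gate cells, as the percent of each library's gate cells in bins of 0.1 (Tom+ red, Tom- grey); the dashed line marks the lowest member at 1.15002. Both distributions fall without a break through the line, and the Tom+ library has more cells to its right.

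Of the 400 members, 273 came from the Tom+ library and 127 from the Tom- library. They made up 9.68% of the Tom+ gate cells (95% exact Clopper-Pearson interval 8.62 to 10.8%, 273 of 2819) and 3.03% of the Tom- gate cells (2.53 to 3.6%, 127 of 4191). Tom+ cells were thus 68.25% of the members (63.4 to 72.8%) and 40.2% of the gate. These intervals, and all others given here, cover counting error only, not the spread between mice. Intervals of summed UMIs and of their ratios also leave out the spread between cells. The libraries differed in depth, with a median of 16318 UMIs in Tom+ members and 12891 in Tom- members, beside 13742 and 11005 in the rest of the gate. When every gate cell was thinned to 6959 UMIs before scoring, members made up 10.4% of the Tom+ and 3.51% of the Tom- gate cells, with 216 and 485 shallower cells left out. The sort decided which cells could enter each library, and its part in these shares was not tested. Members had a median mitochondrial share of 4.69% and 4.34% in the Tom+ and Tom- libraries, beside 4.19% and 3.79% in the rest. The libraries shared 2224 barcode sequences, of which 3 lay within the gate and 0 among members.

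Promoters are shown for 4 of the leading genes that RefSeq lists on GRCm38.p6, each from 250 bases before to 50 bases after the start site, 5′ to 3′ on the gene's own strand. They are the 2 score genes Ptgds (chr2:25469700-25469999, minus strand) and Pdlim3 (chr8:45885237-45885536, plus strand), and the collagen IV genes Col4a5 (chrX:141475169-141475468, plus strand) and Col4a6 (chrX:141474027-141474326, minus strand), whose start sites lie 1342 bases apart in opposite directions. Capitals mark matches on either strand to TGANTCA, the AP-1 motif, or to GGAATG, the TEAD motif. The CArG box, bound by serum response factor, and GTCTAGAC, a SMAD motif, were also searched on both strands and had no match in these 4 windows, and no 2 matches overlapped.

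Ptgds: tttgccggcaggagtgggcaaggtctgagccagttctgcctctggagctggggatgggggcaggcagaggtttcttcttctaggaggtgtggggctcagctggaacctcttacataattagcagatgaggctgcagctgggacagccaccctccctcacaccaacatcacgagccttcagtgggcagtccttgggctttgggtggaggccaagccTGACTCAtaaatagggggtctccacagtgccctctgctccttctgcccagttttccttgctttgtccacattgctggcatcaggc
Pdlim3: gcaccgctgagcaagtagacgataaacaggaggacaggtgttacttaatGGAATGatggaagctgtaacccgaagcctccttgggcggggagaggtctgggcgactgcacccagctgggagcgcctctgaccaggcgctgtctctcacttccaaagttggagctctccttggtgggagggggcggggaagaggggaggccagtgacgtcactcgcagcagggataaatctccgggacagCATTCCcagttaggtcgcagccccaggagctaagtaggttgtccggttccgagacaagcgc
Col4a5: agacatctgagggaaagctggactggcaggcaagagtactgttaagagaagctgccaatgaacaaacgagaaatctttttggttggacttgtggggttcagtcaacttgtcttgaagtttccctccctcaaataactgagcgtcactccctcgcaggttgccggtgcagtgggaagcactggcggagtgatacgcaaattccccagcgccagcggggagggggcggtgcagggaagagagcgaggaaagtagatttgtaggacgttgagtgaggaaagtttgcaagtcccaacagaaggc
Col4a6: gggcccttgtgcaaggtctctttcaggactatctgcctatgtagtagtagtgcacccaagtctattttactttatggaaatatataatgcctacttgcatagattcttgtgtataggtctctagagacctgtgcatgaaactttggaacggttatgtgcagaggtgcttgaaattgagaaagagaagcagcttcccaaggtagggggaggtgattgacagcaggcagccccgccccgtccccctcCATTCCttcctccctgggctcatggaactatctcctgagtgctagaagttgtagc

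The Ptgds promoter held the AP-1 match TGACTCA, and 7.34% of the 23745 promoters of deposited genes hold TGANTCA. Pdlim3 held 2 TEAD matches and Col4a6 held 1, beside 13.9% of all promoters with at least 1. Of the 42 genes described below as 2-fold higher in members, 27 had a promoter in the table, and 4 of these held the AP-1 motif, 5 the TEAD motif, 1 a CArG box and 0 the SMAD motif. Of all 23745 promoters, 1.56% held a CArG box and 0.211% the SMAD motif.

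The values that chose the members are given as a description. UMIs were summed over cells and scaled to a total of 1000000 per sum (CPM). Eln was at 3217 CPM in Tom+ members and 384 CPM in the rest of that library, and at 4170 and 233 CPM in the Tom- library. Pi15 was at 567 and 67.0 CPM in Tom+ members and rest, and at 660 and 42.9 CPM in Tom-. Pdlim3 was at 257 and 21.2 CPM in Tom+, and at 226 and 19.4 CPM in Tom-. Ptgds differed most between the libraries, at 143 and 38.0 CPM in Tom+ and Tom- members, beside 14.4 and 3.75 CPM in the rest.

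The 4 genes were seldom all detected in 1 cell. All 4 had a UMI in 115 members (97 Tom+ and 18 Tom-), 3 of them in 173 and 2 in 112, and no member rested on a single gene. The most frequent set was Pi15, Eln and Pdlim3 without Ptgds, in 134 members, and every member had an Eln UMI. Ptgds had a UMI in 126 of 273 Tom+ members and 29 of 127 Tom- members. At 6959 UMIs per cell, Ptgds was detected in 35.5% of Tom+ members (29.5 to 41.8%) and 5.86% of the Tom+ rest, and in 18.4% of Tom- members (11.8 to 26.8%) and 2.26% of the Tom- rest. Mesothelial cells outside the gate, with 20 or more UMIs of the 5 mesothelial genes and medians of 18847 and 14979.5 UMIs, showed Ptgds at 13.9% in Tom+ and 16.8% in Tom-, and the interval of the Tom- members includes the value of these cells. Pi15, at the same depth, was found in 81.9% of Tom+ and 80.7% of Tom- members, in 27.9% and 18.1% of the rest, and in 1.23% and 1.36% of the mesothelial cells.

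The marker genes put the members among Pdgfra-positive stromal cells. Pdgfra was at 269 and 206 CPM in Tom+ and Tom- members, beside 394 and 301 CPM in the rest, and Dcn, which encodes the proteoglycan decorin and had the most UMIs of the 7 fibroblast markers, was at 19727 and 20734 CPM. The 7 markers together came to 38406 and 39301 CPM in Tom+ and Tom- members, beside 32539 and 32723 CPM in the rest. They did not move together: 2 of the 7 were higher by any amount in members of both libraries and 3 lower. Their median log2 ratios were 0.10 in Tom+ and -0.11 in Tom-. Of the 8 smooth muscle markers, of which 5 averaged 5 CPM or more, Myh11 was 2-fold higher in members of both libraries, while Actg2 and Myocd, the coactivator that defines the lineage, had 0 UMIs in members. By any amount, 3 of the 5 were higher in members of both libraries and 1 lower, with median log2 ratios of 0.93 in Tom+ and 0.27 in Tom-. Des, second to Myh11 in UMIs, had a UMI in 175 of 273 Tom+ members and 65 of 127 Tom- members. Acta2, smooth muscle actin, was at 18.4 and 16.9 CPM in Tom+ and Tom- members, beside 11.7 and 25.9 CPM in the rest. The summed level of these 8 genes was 345 and 354 CPM in Tom+ and Tom- members, against 133 and 190 CPM in the rest, with Myh11 having the most UMIs. Of the 8 pericyte markers, 4 averaged 5 CPM or more, and 0 of these were 2-fold higher in both libraries. Together the 8 were at 89.5 and 130 CPM in members and 81.8 and 118 CPM in the rest, with the most UMIs from Vtn, and Rgs5, the usual pericyte marker, had a UMI in 1 of 273 Tom+ members.

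Markers of other cells were at low levels in members, and the immune list alone was far below the rest. The 8 immune markers summed to 13.8 and 13.3 CPM in Tom+ and Tom- members, against 315 and 112 CPM in the rest, with Ptprc, which encodes CD45, at 0 UMIs in members. Lyz2 had the most UMIs in Tom+ members, 28, and Cd74 in Tom- members, 14. The 8 endothelial markers summed to 16.4 and 20.5 CPM in members and 11.6 and 13.8 CPM in the rest, with Cdh5 at 0 UMIs and Flt1 having the most. The 1 endothelial gene that averaged 5 CPM or more was higher in members, with log2 ratios of 1.28 in Tom+ and 0.87 in Tom-. Mesothelial markers were at 6.46 and 27.7 CPM in Tom+ and Tom- members, beside 8.79 and 34.6 CPM in the rest. Schwann cell markers were at 21.0 and 11.5 CPM, beside 21.4 and 13.7 CPM. Adipocyte markers were at 27.4 and 9.65 CPM, beside 29.1 and 15.5 CPM, with Adipoq and Lep at 0 UMIs in members. Epididymal markers were at 1.84 and 0.603 CPM, beside 1.48 and 0.579 CPM.

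Members were then compared with the rest of the gate within each library. Of 5838 genes that averaged 20 CPM or more over the 4 sums, 42 (0.719%) were at least 2-fold higher in members of both libraries and 59 (1.01%) at least 2-fold lower. The median log2 ratio over all 5838 genes was -0.03 in Tom+ and -0.0025 in Tom-. The members were picked from these same cells, so the ratios describe the members and carry no test.

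**Figure D2:**
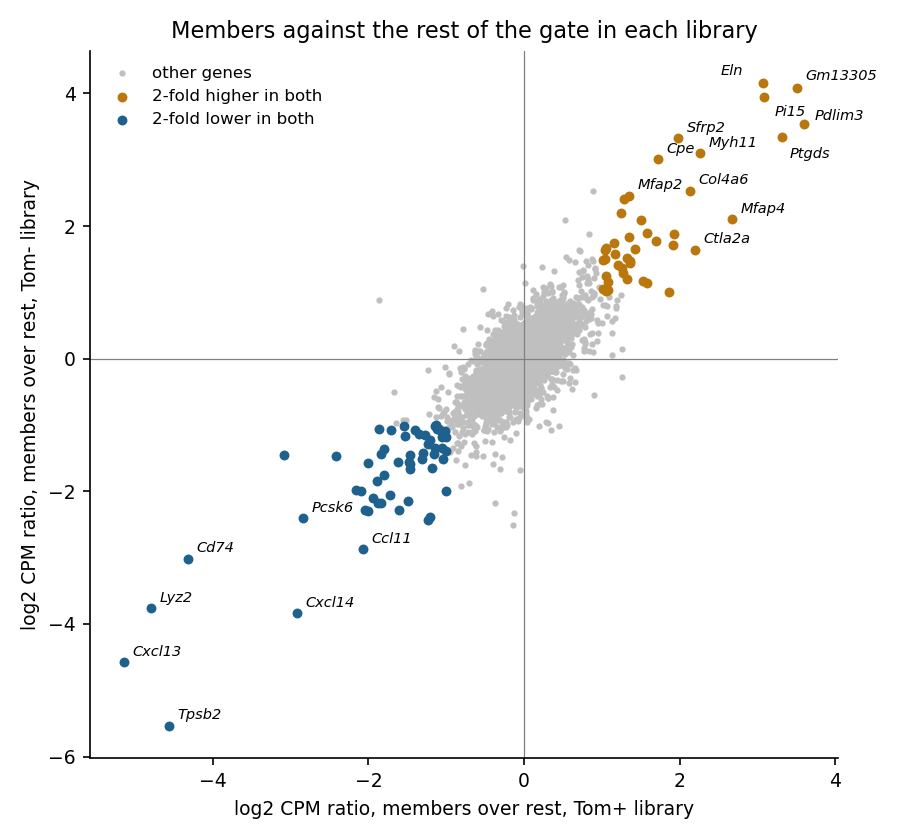
log2 CPM ratio of members over the rest of the gate for genes that averaged 20 CPM or more, Tom+ library on the x axis and Tom- library on the y axis, 1 point per gene. The 42 genes 2-fold higher in both libraries (ochre) lie at upper right with the score genes and Gm13305 farthest out, and those 2-fold lower (blue) lie at lower left; 2 of the 59, Mcpt4 and Cma1, had 0 UMIs in Tom- members and are not plotted.

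Beside the score genes, the largest ratio belonged to Gm13305 (ENSMUSG00000073876, chr4:42158842-42168603 on GRCm38, minus strand), a copy of the interleukin 11 receptor alpha gene. It was at 60.2 CPM in Tom+ members and 5.28 CPM in the rest, and at 113 and 6.67 CPM in Tom-. Its longest transcript was 98.97% identical to that of Il11ra1 over 1654 aligned bases and matched Il11ra2 over all 1299 bases of its transcript. Il11ra2 had 0 UMIs in every sum, so reads of these copies could have been assigned to Gm13305 alone, and its level is uncertain. Il11ra1 itself was at 280 and 240 CPM in Tom+ members and rest, and at 468 and 296 CPM in Tom-.

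Among the other leading genes, Myh11, smooth muscle myosin heavy chain (chr16:14194535-14291372, minus strand), was at 171 CPM in Tom+ members and 35.7 CPM in the rest, a log2 ratio of 2.26 (2.13 to 2.39), and at 185 and 21.6 CPM in Tom-, a log2 ratio of 3.1 (2.91 to 3.29). Sfrp2, a secreted Wnt modulator (chr3:83766321-83774316, plus strand), was at 644 and 163 CPM in Tom+ members and rest and at 1720 and 172 CPM in Tom-. Cpe, a carboxypeptidase that trims peptide hormones, was at 252 and 76.3 CPM in Tom+ and at 281 and 34.9 CPM in Tom-. These genes were higher in members of each library, and the ratio was larger in Tom- for all 3. Mesothelial cells, which the gate left out, were not low for all 3. With cells thinned to the same depth, Cpe was found in 53.6% of Tom+ and 54.4% of Tom- members. In mesothelial cells it was found in 57.4% and 58.0%. Sfrp2 was found in 48.8% and 56.1% of members and in 65.6% and 70.6% of mesothelial cells. Myh11 differed, at 50.8% and 49.1% of members and 2.46% and 1.31% of mesothelial cells.

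Also among the 20 highest, Vegfc, a lymphangiogenic growth factor, was at 231 and 71.2 CPM in Tom+ members and rest and at 287 and 84.2 CPM in Tom-. Npr3, the natriuretic peptide clearance receptor, was at 52.3 and 13.9 CPM in Tom+ and at 35.0 and 10.7 CPM in Tom-. Atp1b1, a sodium pump subunit, was at 96.4 and 25.4 CPM in Tom+ and its Tom- log2 ratio was 1.88. Ctla2a, a cysteine protease inhibitor with a near copy beside it whose reads may be split between them, was at 698 and 152 CPM in Tom+ and at 293 and 93.7 CPM in Tom-. The rest of the 20 were Nt5dc2, Fam180a, Slc17a7, a vesicular glutamate transporter, and Cpz, a carboxypeptidase that cleaves Wnt ligands, together with the collagen IV genes and Mfap4. Their log2 ratios ran from 1.35 to 2.68 over both libraries. Under other settings the Tom- ratio fell as low as 0.58 for Mfap4, 0.49 for Fam180a and 0.92 for Col4a4, short of 2-fold.

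**Figure D3:**
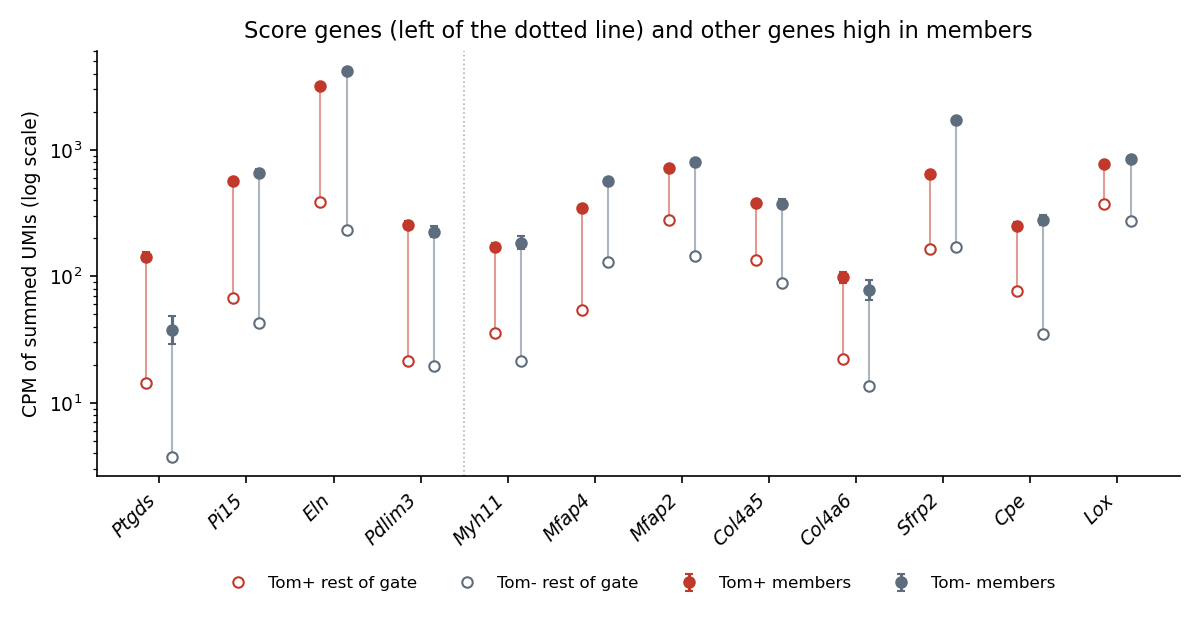
CPM of summed UMIs (log scale) of the 4 score genes and 8 further genes, filled points for members with exact 95% Poisson intervals and open points for the rest of the gate, Tom+ red and Tom- grey. Each filled point lies above the open point of its own library, and Ptgds and Sfrp2 show the widest gaps between the filled points of the libraries, in opposite directions.

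Elastic fibre genes moved unevenly with elastin. Of 21 measured genes of the list, 5 were at least 2-fold higher in members of both libraries and 2 lower, beside 1.05% and 1.4% of all 9816 genes that averaged 5 CPM or more, the floor used for lists. One of the 5, Eln, was a score gene and had to differ, which leaves 4 of 20, and Ptgds, Pi15 and Pdlim3 likewise count in the lists that hold them below. The higher ones were Eln itself, the microfibril-associated Mfap4 and Mfap2, the fibrillin Fbn2 and the lysyl oxidase Lox. Mfap4 was at 345 CPM in Tom+ members and 54.1 CPM in the rest, and at 564 and 131 CPM in Tom-. Its Tom- log2 ratio of 2.11 fell as low as 0.58 over the settings tried, so this call was not kept under all of them. Mfap2 was at 712 and 280 CPM in Tom+ and at 803 and 146 CPM in Tom-. Lox, which cross-links elastin and collagen, was at 768 and 375 CPM in Tom+ and at 851 and 273 CPM in Tom-. Efemp1, encoding fibulin-3, was lower, at 227 and 455 CPM in Tom+ and at 248 and 654 CPM in Tom-, as was Emilin2. Fibrillin-1 and the fibulins Fbln1 and Fbln2 passed 2-fold in neither direction. The median log2 ratio of the list was 0.22 in Tom+ and 0.30 in Tom-, beside -0.04 and -0.0029 over all 9816 genes.

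In the basement membrane list, collagen IV chains went both ways. Collagen IV is built from 3 chains, and the chains encoded by Col4a1 and Col4a2 form the common network of most basement membranes, while those of Col4a3 to Col4a6 form networks of particular sites. Col4a6 (chrX:141165403-141474076) was at 98.5 and 22.4 CPM in Tom+ members and rest and at 78.4 and 13.5 CPM in Tom-. Col4a5 (chrX:141475385-141689234), its head-to-head neighbour, was at 378 and 134 CPM in Tom+ and at 376 and 88.1 CPM in Tom-. Col4a4 was at 68.5 and 26.7 CPM in Tom+ and at 66.3 and 24.4 CPM in Tom-. All 3 were higher in members of each library, while Col4a3 was low, at 5.53 and 4.16 CPM in Tom+ and 9.65 and 4.54 CPM in Tom-. By contrast, Col4a1 was at 848 and 1537 CPM in Tom+ members and rest and at 765 and 1004 CPM in Tom-, and the laminin gene Lamb1 was at 116 and 256 CPM in Tom+ and at 79.6 and 202 CPM in Tom-. In all, 3 of 17 genes were 2-fold higher and 1, Lamb1, lower.

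Of 6 fibrillar collagen genes, 4 were higher in members of both libraries by any amount and 1 lower, beside 30.6% and 37.2% of all 9816 genes, and 0 reached 2-fold in both. Their summed level was 23884 CPM in Tom+ members and 14465 CPM in the rest, and 24253 and 9990 CPM in Tom-. Col3a1 was at 10114 and 5833 CPM in Tom+ and Col1a1 at 5404 and 2869 CPM, while in Tom- Col1a1 was at 5931 and 2305 CPM. The median log2 ratio was 0.49 in Tom+ and 0.92 in Tom-, and the gene lower in both was Col5a3, at 230 and 418 CPM in Tom+ and 142 and 240 CPM in Tom-. Sparc, which binds collagen, was at 9257 and 5037 CPM in Tom+ and at 10157 and 3601 CPM in Tom-. Collagen VI and fibril-associated collagens had 0 of 9 genes past 2-fold in both libraries, with medians of 0.46 and 0.49, and small leucine-rich proteoglycans 0 of 11.

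The contractile list did not move with Myh11. Of 29 measured contractile and cytoskeletal genes, Myh11 was 2-fold higher in both libraries and 0 were lower, and the median log2 ratio was -0.06 in Tom+ and -0.15 in Tom-. Lmod1, a leiomodin of smooth muscle, was at 21.9 and 7.69 CPM in Tom+ members and rest and at 22.9 and 12.2 CPM in Tom-. Tagln was at 12.2 and 13.8 CPM in Tom+ and at 16.3 and 38.1 CPM in Tom-. Among 17 regulators of smooth muscle, 0 were 2-fold higher and 2 lower in both libraries, the receptor Notch1 and the Notch target Heyl, and Srf, serum response factor, was at 115 and 112 CPM in Tom+ and at 142 and 111 CPM in Tom-. Of 13 genes with PDZ and LIM domains, Pdlim3 and Fhl2 were 2-fold higher. Fhl2, a LIM-only cofactor, was at 86.7 and 43.1 CPM in Tom+ and at 149 and 52.9 CPM in Tom-.

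In the prostaglandin list of 15 measured genes, Ptgds was joined by the prostaglandin E2 receptor gene Ptger2, at 6.92 and 2.38 CPM in Tom+ members and rest and 9.65 and 2.89 CPM in Tom-. Ptger4, another prostaglandin E2 receptor gene, was lower, at 3.00 and 13.6 CPM in Tom+ and 3.62 and 13.3 CPM in Tom-. Ptgs2, the inducible cyclooxygenase upstream of prostaglandin D2, was at 159 and 243 CPM in Tom+ and at 179 and 475 CPM in Tom-. Hpgd, which inactivates prostaglandins, was at 323 and 222 CPM in Tom+ and at 339 and 195 CPM in Tom-. The receptors for prostaglandin D2, Ptgdr and Ptgdr2, and the other synthase, Hpgds, had 0 UMIs in members. Pi15 was the single gene of 11 in the CAP superfamily and serpin list past 2-fold.

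**Figure D4:**
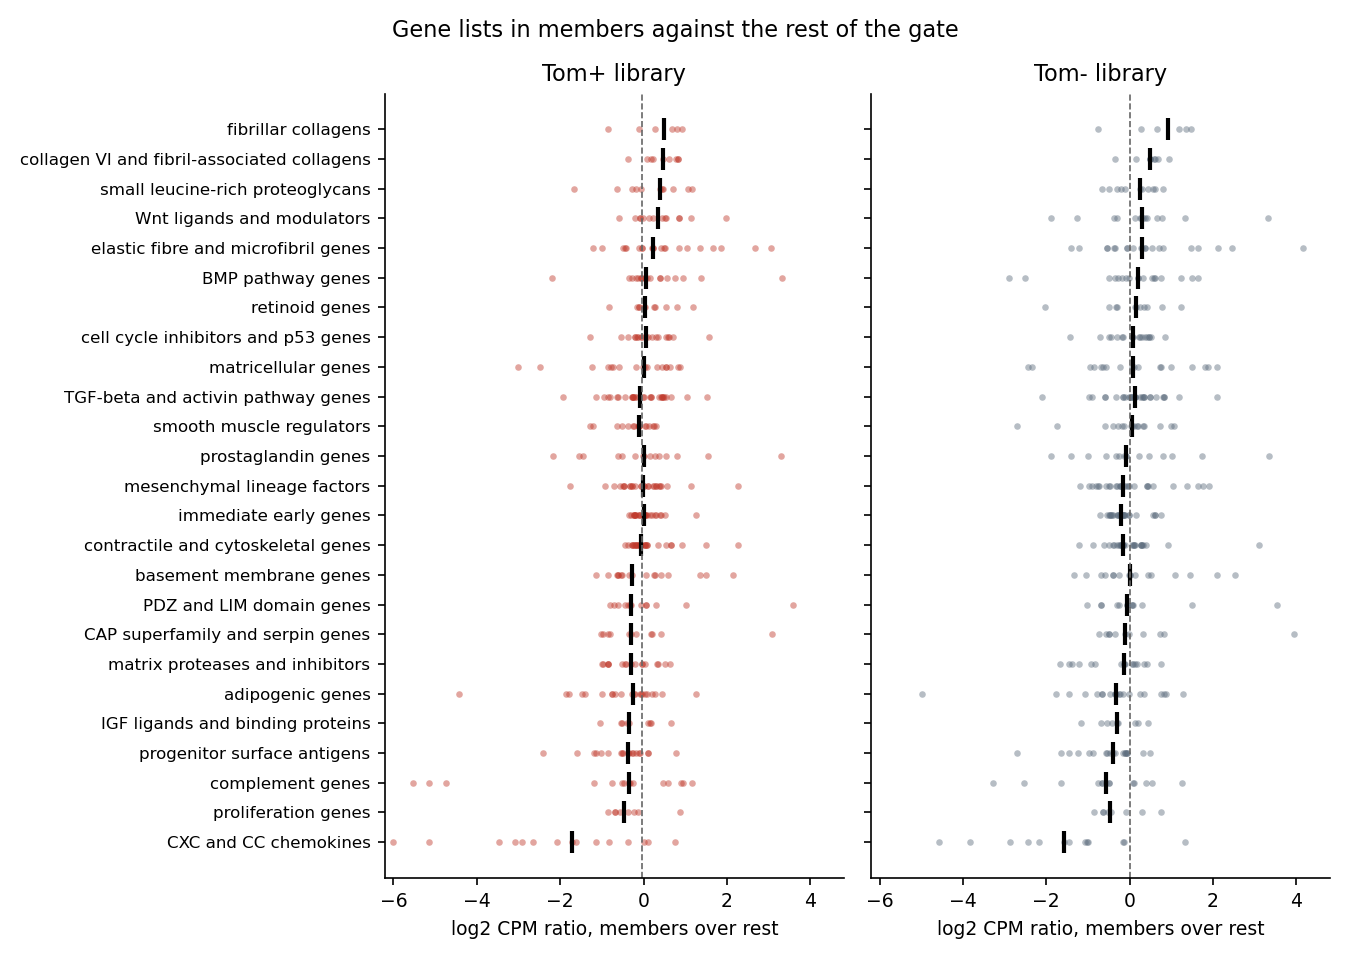
log2 CPM ratio of members over the rest of the gate for each measured gene (points) of 25 lists, with the list's median (black bar) and the median of all 9816 genes (dashed line), Tom+ library left and Tom- library right. Fibrillar collagens have the highest medians, 0.49 and 0.92, and chemokines the lowest, -1.71 and -1.56; genes with 0 UMIs in a sum are not plotted.

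Most chemokine genes were lower in members. Of 15 measured genes of the CXC and CC list, 10 were at least 2-fold lower in both libraries and 0 higher, with median log2 ratios of -1.71 in Tom+ and -1.56 in Tom-. Cxcl1, a neutrophil chemokine with the most UMIs of the list, did not reach 2-fold, at 1183 and 2114 CPM in Tom+ members and rest and at 2590 and 5140 CPM in Tom-. Ccl11, eotaxin, was at 252 CPM in Tom+ members and 1056 CPM in the rest, and at 244 and 1782 CPM in Tom-. Ccl2, which attracts monocytes, was at 300 and 924 CPM in Tom+ and at 518 and 1533 CPM in Tom-. Cxcl12 was at 325 and 720 CPM in Tom+ and at 441 and 893 CPM in Tom-. Cxcl13, a B cell chemokine, was at 1.15 and 40.5 CPM in Tom+ and at 4.82 and 115 CPM in Tom-, and without the clusters of other cells described below the rest was at 11.1 and 85.7 CPM, a Tom+ log2 ratio of -3.27 in place of -5.14. Cxcl14 was at 4.84 and 36.5 CPM in Tom+ and at 6.03 and 85.9 CPM in Tom-. Ccl19 alone lay higher in members of both libraries, without reaching 2-fold in both, at 36.0 and 21.2 CPM in Tom+ and at 60.3 and 24.0 CPM in Tom-.

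The adipogenic list was mixed. Of 22 measured genes, 4 were 2-fold lower in both libraries and 1, Mgp, the matrix Gla protein, was higher, and the median log2 ratios were -0.26 and -0.33. The summed level of the list went the other way, at 13985 and 13054 CPM in Tom+ members and rest and at 16861 and 15508 CPM in Tom-. Apoe, apolipoprotein E, had the most UMIs, at 3483 and 2864 CPM in Tom+ and at 3595 and 2832 CPM in Tom-. Fabp4, a fatty acid carrier, was at 1502 and 1310 CPM in Tom+ and at 1860 and 1097 CPM in Tom-. Among the genes that were lower, Lpl, lipoprotein lipase, was at 389 and 1077 CPM in Tom+ members and rest and at 379 and 1040 CPM in Tom-. Plin2, which coats lipid droplets, was at 71.2 and 248 CPM in Tom+ and at 66.3 and 224 CPM in Tom-. Cebpa, an adipogenic transcription factor, was at 17.3 and 45.9 CPM in Tom+ and at 23.5 and 49.4 CPM in Tom-, and Car3 was at 0.461 and 9.99 CPM in Tom+ and at 0.603 and 19.1 CPM in Tom-. Pparg did not pass 2-fold in both libraries, at 11.8 and 23.5 CPM in Tom+ and 18.7 and 25.8 CPM in Tom-. Among 19 progenitor surface antigens, 3 were 2-fold lower, Cd55, Dpp4 and Thy1, and 0 were higher. Dpp4 was limited by the gate itself.

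Signalling lists had few genes past 2-fold. In the TGF-beta and activin list of 30 genes, Tgfb2, a ligand, was at 186 and 64.6 CPM in Tom+ members and rest and at 127 and 56.4 CPM in Tom-, and Inhbb, an activin subunit, was lower at 9.92 and 37.9 CPM in Tom+ and 8.44 and 36.1 CPM in Tom-. Among BMP pathway genes, the antagonist gene Chrdl1 was higher and the ligand gene Bmp2 lower, both under 30 CPM in members. Sfrp2 was the single gene of 14 Wnt ligands and modulators past 2-fold. Of 28 mesenchymal lineage factors, Osr1 and Hoxc10 were higher. Osr1, a zinc finger factor of connective tissue, was at 326 and 147 CPM in Tom+ and at 383 and 114 CPM in Tom-. With cells thinned to the same depth, Osr1 was found in 71.0% of Tom+ and 62.3% of Tom- members. In mesothelial cells, which the gate left out, it was found in 65.6% in each library. In the IGF list 1 of 9 was lower, Igfbp4, and among complement genes Cd59a was higher and 4 of 15 lower, 3 of them the C1q chains of macrophages. Immediate early genes (27), matrix proteases and inhibitors (17), retinoid genes (11) and proliferation genes (8) had 0 past 2-fold in both libraries, and matricellular genes had 2 of 18 lower, Thbs1 and Nov. Beyond the fibrillar collagens and chemokines, the medians of the 25 lists ran from -0.47 to 0.46 in Tom+ and from -0.57 to 0.49 in Tom-.

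Among the 10 lowest genes, Mcpt4, Tpsb2 and Cma1 are genes of mast cells, and Lyz2 and Cd74 of macrophages and other immune cells. Mcpt4, a mast cell protease, was at 2.31 CPM in Tom+ members and 78.5 CPM in the rest, and had 0 UMIs in Tom- members against 34.9 CPM in the rest, at least 19.3-fold lower when 3 UMIs over the group are taken as the floor. These values come with 3 clusters of the gate that held other cells: cluster 6 with 86 cells led by Lyz2 and C1qa, cluster 8 with 142 cells led by Ccl21a and Cldn5, and cluster 9 with 25 cells led by Mcpt4 and Tpsb2. Those clusters held 1 member together. With them left out of the rest, a comparison added after the values were seen, 41 genes were 2-fold higher and 51 lower, of which 39 and 51 were among the 42 and 59, and the Tom+ log2 ratios of Cma1 and Lyz2 became 0.53 and 0.063. Genes still 2-fold lower included Cxcl13, Cxcl14, Pcsk6, Ccl11, Crip2 and Hsd11b1. Pcsk6, a proprotein convertase, was at 10.8 CPM in Tom+ members and 78.3 CPM in that rest, and at 10.9 and 58.4 CPM in Tom-. Hsd11b1, which activates glucocorticoids, was at 33.7 and 137 CPM in Tom+ and at 61.5 and 312 CPM in Tom-.

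The reporter and the p16 locus were measured in the same cells. tdTomato was at 89.5 CPM in Tom+ members and 160 CPM in the rest of that library, and at 14.5 and 13.4 CPM in Tom- members and rest. At 6959 UMIs per cell, 14.9% of Tom+ members and 16.8% of the Tom+ rest had a tdTomato UMI, beside 9.65% of Tom- members (4.92 to 16.6%) and 8.41% of the Tom- rest. Mesothelial cells of the Tom+ library, in contrast, had one in 69.3%. The members' reporter UMIs lay in few cells. Of 273 Tom+ members, 73 had any, and 7 (2.56%, 1.04 to 5.21%) had 5 or more and held 79.4% of the 388 UMIs, the highest with 66. In the rest of that library 174 of 2546 cells (6.83%, 5.88 to 7.88%) had 5 or more, and in the Tom- library no gate cell did. Cdkn2a, whose 3′ end is shared by the p16 and p19Arf transcripts, was at 11.5 and 3.91 CPM in Tom+ members and rest, a log2 ratio of 1.56 (1.06 to 2.03) on 50 UMIs in 19 members, and at 5.43 and 4.09 CPM in Tom- on 9 UMIs. The Tom+ log2 ratio fell to 0.15 with the mitochondrial limit at 5% and to 0.68 with 800 members. At 1 depth it was found in 5.65% (3.12 to 9.29%) of Tom+ and 3.51% (0.964 to 8.74%) of Tom- members, in 1.66% and 1.75% of the rest and in 7.38% and 4.15% of the mesothelial cells, so the members were not above the mesothelial cells. Cdkn1a, which encodes p21, was at 246 and 282 CPM in Tom+ and at 175 and 288 CPM in Tom-. Of 19 cell cycle inhibitors and p53 genes, 0 were 2-fold higher in both libraries and 1, Gadd45a, lower.

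Tom+ and Tom- members were then set side by side. Of 5838 genes, 48 (0.822%) were at least 2-fold higher and 30 (0.514%) at least 2-fold lower in Tom+ members. In the rest of the gate the same comparison gave 28 (0.48%) and 44 (0.754%). With median-of-ratios size factors in place of CPM, the split in members was 34 higher and 37 lower. With CPM kept, it was 31 and 38 with 800 members and 33 and 51 with 200 members from each library. It was 765 and 929 with no filter on low counts and 13 and 13 at a mean of at least 50 CPM. With 200 members, or without any 1 of the score genes, more genes stayed higher than lower. The balance of directions thus depends on the scaling, the filter and the cells chosen. With 1 library each, the reporter and the library cannot be told apart.

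Among genes with at least 50 CPM in members of both libraries, the highest ratio was that of Igkc, an immunoglobulin light chain that stromal cells do not make, at 449 and 142 CPM in Tom+ and Tom- members. It was at 528 and 179 CPM in the rest, a similar gap. Vldlr, a lipoprotein receptor, was at 161 and 65.1 CPM in Tom+ and Tom- members, beside 198 and 112 CPM in the rest. Enc1 was at 130 and 54.3 CPM in members and 135 and 174 CPM in the rest, and Ctla2a at 698 and 293 CPM in members and 152 and 93.7 CPM in the rest. Ppargc1a, a coactivator of mitochondrial genes, was at 122 and 54.9 CPM in members and 66.5 and 28.9 CPM in the rest. Mmp3, a stromal protease, was at 170 and 71.7 CPM, but 1 Tom- member held 81 of the 119 UMIs and without it the level was 22.9 CPM. Of these 6 genes, Enc1 alone had a ratio of opposite sign in the rest. Its log2 ratio in members was 1.26 and fell to 0.067 with 800 members, and that of Mmp3 was 1.25 and fell to 0.15 without Pi15 in the score. Those of Ctla2a, Ppargc1a and Vldlr fell as low as 0.92, 0.85 and 0.74 over the settings tried, short of 2-fold.

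The lowest ratio was that of Ctgf, connective tissue growth factor, at 79.8 and 247 CPM in Tom+ and Tom- members, a log2 ratio of -1.63 (-1.84 to -1.42), beside 55.2 and 57.8 CPM in the rest. Sfrp2 was at 644 and 1720 CPM in members, a log2 ratio of -1.42 (-1.49 to -1.34), beside 163 and 172 CPM in the rest. For both, the libraries were level in the rest and apart in members. Over the settings tried, the log2 ratio in members shrank to -0.81 for Ctgf and -0.89 for Sfrp2, short of 2-fold. The other 4 were lower in Tom+ in the rest as well: Meg3, an imprinted noncoding RNA, at 129 and 383 CPM in members, Cpxm2 at 55.1 and 163 CPM, Ccl7, a monocyte chemokine, at 235 and 660 CPM, and Hspa1a, a heat shock protein with the near copy Hspa1b, at 161 and 367 CPM. The log2 ratio of Meg3 in members was -1.58, but -0.024 with members of cluster 1 alone, and that of Cpxm2 was -1.56, but -0.26 with 200 members. Those of Ccl7 and Hspa1a were -1.49 and -1.19, and shrank to -0.60 and -0.51 over the settings tried, short of 2-fold. Ptgds, which the rule used, had a log2 ratio of 1.91 in members and 1.94 in the rest.

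Members lay together in expression space even when the 4 score genes were left out. Of the 20 nearest cells of a member, by 30 principal components of 2000 variable genes, 42.2% were members, beside 5.71% of all gate cells, and 2.69% of the neighbours of other cells were members. Even so, 26 members had no member among their 20 neighbours. Leiden clustering of the same graph gave 9 clusters, and cluster 1, with 384 cells, held 201 members (141 Tom+ and 60 Tom-), which were 52.3% (47.2 to 57.4%) of its cells. Cluster 2 held 95 members among 1389 cells, and clusters 3, 4 and 5 held 19, 38 and 46. No cluster was thus made of members alone, and about as many members lay outside cluster 1 as inside it.

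**Figure D5:**
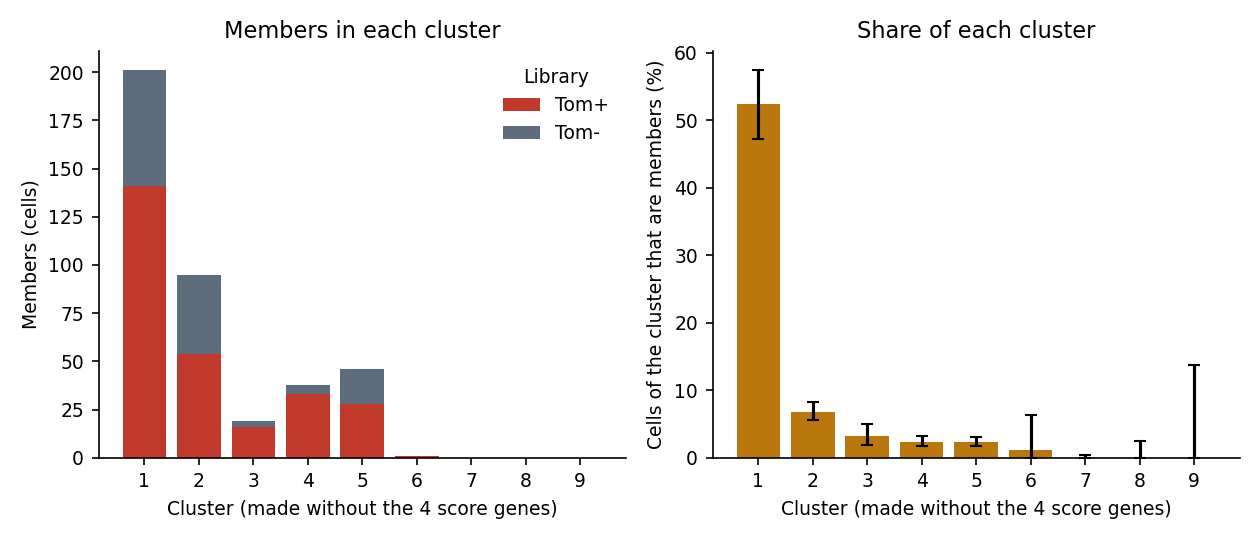
Members in each of 9 clusters made without the 4 score genes, as numbers of cells by library (left, Tom+ red, Tom- grey) and as a percent of the cluster with exact 95% Clopper-Pearson intervals (right). Cluster 1 holds 201 members, 52.3% of its cells, and cluster 2 holds 95, 6.84% of its cells.

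Leading genes of cluster 1 were Gm13305, Pi15, Prg4, Cpe, Eln, Myh11, Meox2, Sfrp2, Pdlim3 and Ptgds, and those of cluster 2 included Mfap4, Cpxm2, Il33, Il6 and Mgp. The clusters drew on different score genes. Pi15 had a UMI in 98.0% of cluster 1 members and 60% of cluster 2 members, whose median depths were 16869 and 11126 UMIs, while Pdlim3 had one in 72.1% and 90.5% and Ptgds in 30.3% and 46.3%. Cluster 3 members had Pi15 and Eln in all 19 cells and Ptgds in none.

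The members of cluster 1 differed from those of cluster 2 in many genes beyond the 4. Of 2783 genes that averaged 50 CPM or more in these sums, 50 (1.8%) were at least 2-fold higher in cluster 1 members and 77 (2.77%) in cluster 2 members in both libraries. The clusters were drawn from these values, so this is a description, and the genes that follow were chosen after their values were seen. Adamts12, a matrix protease, was at 125 CPM in cluster 1 and 20.8 CPM in cluster 2 members of the Tom+ library, and at 129 and 22.5 CPM in Tom-. Agt, angiotensinogen, was at 398 and 84.8 CPM in Tom+ and at 428 and 55.1 CPM in Tom-. Gdf10, a ligand of the TGF-beta superfamily, was at 453 and 142 CPM in Tom+ and at 1032 and 175 CPM in Tom-. On the other side, Pi16, a marker of interstitial progenitors that the gate limits, was at 3.28 and 64.0 CPM in Tom+ and at 5.70 and 210 CPM in Tom-. Thbs1 was at 81.7 and 1030 CPM in Tom+ and at 64.9 and 596 CPM in Tom-, Ptgs2 at 87.0 and 509 CPM in Tom+ and at 37.6 and 554 CPM in Tom-, and Has1, a hyaluronan synthase, at 105 and 462 CPM in Tom+ and at 83.2 and 561 CPM in Tom-.

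The genes that lead the comparison with the rest were thus not spread evenly over the members. Myh11 was at 227 and 257 CPM in Tom+ and Tom- members of cluster 1, and at 97.8 and 104 CPM in members elsewhere. Gm13305 was at 101 and 189 CPM in cluster 1 and at 8.41 and 26.9 CPM elsewhere. Sfrp2 was at 900 and 2857 CPM in cluster 1 and at 317 and 443 CPM elsewhere. Cells of cluster 1 that were not members, 113 in Tom+ and 70 in Tom-, shared several of the leading genes. In them Cpe was at 326 and 443 CPM in Tom+ and Tom-, Npr3 at 56.1 and 42.9 CPM, Vegfc at 238 and 218 CPM and Myh11 at 148 and 92.4 CPM. Cpe was thus higher there than in the members as a whole. Among members, Mfap4 went the other way, at 298 and 195 CPM in cluster 1 and at 406 and 978 CPM elsewhere, as did Ptgds, at 129 and 21.6 CPM in cluster 1 and at 160 and 56.3 CPM elsewhere. With the comparison limited to members of cluster 1, added after the values were seen, 62 genes were 2-fold higher and 110 lower than in the rest, of which 35 and 50 were among the 42 and 59. tdTomato was at 115 CPM in Tom+ members of cluster 1 and 56.8 CPM in those elsewhere, beside 168 CPM in Tom+ cells that were neither members nor in cluster 1 and 15.1 CPM in Tom+ cells of cluster 1 that were not members. Without the UMIs of the highest cell of each, the members of cluster 1 were at 89.9 CPM and those elsewhere at 22.1 CPM.

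Cells were also chosen in the same way by other genes. Members were 5.71% of all gate cells. The 400 gate cells highest for Cxcl13, Cpxm2 and Ltbp2 shared 30 cells with them, 7.5% of each set, and the 400 highest for Cd36, Meox2 and Aspn shared 14, 3.5% of each set. The Cxcl13 Cpxm2 Ltbp2 cells had Pdlim3 at 154 and 101 CPM in Tom+ and Tom- and Mfap4 at 640 and 785 CPM, but Pi15 at 41.6 and 24.9 CPM and Myh11 at 17.5 and 19.7 CPM. In these cells Ptgds was at 66.8 and 5.75 CPM, beside 143 and 38.0 CPM in members, so their Tom+ level lay above that of Tom- members. Eln was at 673 and 446 CPM in them, beside 3217 and 4170 CPM in members. The Cd36 Meox2 Aspn cells had Pdlim3 at 7.41 and 9.30 CPM, Myh11 at 22.2 and 6.34 CPM and Col4a5 at 51.4 and 41.9 CPM. Members were not highest throughout. Col3a1 was at 10677 and 6657 CPM in the Cd36 Meox2 Aspn cells, beside 10114 and 10189 CPM in members, and Mgp was at 6420 and 5820 CPM in the Cxcl13 Cpxm2 Ltbp2 cells, beside 2738 and 4217 CPM in members. In the 713 cells with 10 or more UMIs of Pi16 and Dpp4, which the gate left out, Ptgds was at 3.91 and 1.94 CPM, Eln at 360 and 274 CPM, Myh11 at 4.37 and 4.52 CPM and Sfrp2 at 433 and 489 CPM.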

How the data were processed

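Droplet RNA of sorted CD31- CD45- cells was measured in 1 Tom+ and 1 Tom- library. The authors deposited raw UMI counts per gene and cell barcode for each library, and the submitters' processing notes name Cell Ranger 3.0.2 and mm10. UMI counts were used as deposited, 31054 genes per library. Whether doublets were removed before deposit was not given in the sources used here, and no doublet caller was run. Members and gene lists were chosen with earlier results of these data known, and the named genes follow a rule: the score genes, tdTomato, Cdkn2a and Cdkn1a, the 20 highest and 10 lowest ratios, the 6 highest and 6 lowest between libraries, up to 4 genes of each list with the most UMIs in members and all past 2-fold, and genes naming cells compared. Other genes were named after their values were seen.

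UMIs were summed over members and over the rest of the gate and scaled to CPM. Ratios were called past 2-fold without a test, since each condition had 1 library, with exact conditional intervals. Genes needed a mean of 20 CPM (5 CPM in lists) over the 4 sums. Neighbours and Leiden clusters (resolution 0.5) used scikit-learn 1.9.0 and igraph 0.11.9. The interval code was tested on simulated data that had no spread between cells. Gene positions come from GENCODE and promoters from RefSeq. Alternatives varied the number of members, score genes, mitochondrial limit, depth, scaling and filters. Cells outside the gate were not analysed here except for their scores and for mesothelial and Pi16 Dpp4 cells. Some results are not reported here.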

Additional observations from a re-analysis of the deposited data

Results flagged for a closer look

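For 4 genes with at least 50 CPM in members of both libraries, members lay above the rest of the gate in one library and below it in the other, by at least 0.4 on the log2 scale and with counting intervals on opposite sides of 0. The difference between the libraries was not tested, since each had 1 library. The gene 6030408B16Rik was at 70.1 CPM in Tom+ members and 37.6 CPM in the rest, and at 59.7 and 87.3 CPM in Tom-, so that the Tom+ log2 ratio minus the Tom- one was 1.45. Fbln5, fibulin-5, which helps elastin assemble, was at 252 and 339 CPM in Tom+ and at 522 and 323 CPM in Tom-, a difference of -1.12. Nab2, a corepressor of Egr factors, was at 50.3 and 69.5 CPM in Tom+ and at 90.4 and 57.0 CPM in Tom-, a difference of -1.13. Nr4a3, an immediate early nuclear receptor, was at 592 and 441 CPM in Tom+ and at 536 and 746 CPM in Tom-, a difference of 0.90.

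Some barcodes outside the gate also reached the lowest member's score. Among barcodes left out for their number of genes, 18 of 1924 (0.936%) in Tom+ and 62 of 4996 (1.24%) in Tom- did so, with medians of 695.5 and 604.5 UMIs, so few that their scores cannot be compared with those of members. Among those left out for their mitochondrial share, 12 of 118 Tom+ barcodes (10.2%, 5.37 to 17.1%) did so, and 6 of 125 (4.8%, 1.78 to 10.2%) in Tom-. These intervals include the share of gate cells that were members, 9.68% in Tom+ and 3.03% in Tom-. Among mesothelial cells left out of the gate, 10 of 1917 (0.522%) in Tom- and 0 of 261 in Tom+ did so, where a limit of 3 counts allows up to 1.15%.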

How the results depend on the processing

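The Tom+ share of members, 68.25%, stayed within its counting interval under the other settings tried except with the mitochondrial limit at 5%, where it was 60.5%; with 200 members taken from each library it is fixed and has no value. The number of genes 2-fold higher in members (42) stayed within 1.5 times except with no filter on low counts (441). The number 2-fold lower (59) was 89 with 200 members, 37 with 800, 32 with the mitochondrial limit at 5%, 245 with no filter, 33 with a mean of at least 50 CPM and 110 with members of cluster 1 alone. The number past 2-fold between Tom+ and Tom- members (78) was 149 with 200 members, 157 with thinned cells, 1694 with no filter, 26 at 50 CPM and 164 with members of cluster 1 alone. The share of members among a member's neighbours, 42.2%, was 43.6% with 800 members, 39.4% with 200 of each library, 37.0% without Pi15 in the score, 35.5% without Eln, 34.7% with the mitochondrial limit at 5%, 40.6% without the deepest cells, 36.8% with thinned cells, 44.5% with 10 neighbours and 38.1% with 50. Among settings that also took 400 cells, the share of members kept ran from 64.5%, with the mitochondrial limit at 5%, and 66.75%, without Eln, to 93%, without the deepest cells. Of ratios that were at least 2-fold, those that changed sign were Fam180a between Tom+ and Tom- members, 0.0062 with 200 members, Cdkn2a between them, -0.69 with the mitochondrial limit at 5%, and, with clusters 6, 8 and 9 left out of the rest, Cma1 (0.53) and Lyz2 (0.063) in Tom+ and Cd74 (0.71) and the immune marker median (0.71) in Tom-. Smaller ratios also changed sign, among them those of Tom+ over Tom- members for Mfap4 (0.61 with members of cluster 1 alone), Gm13305 (0.31 without Eln) and Cdkn1a (-0.20 with the mitochondrial limit at 5%), and of members over the rest for Cpxm2 in Tom- (-0.82) and Mmp3 in Tom+ (-0.40), both with 200 members. The cause was not tested, but for clusters 6, 8 and 9 the construction removes the cells that carry these genes. No paired analysis was possible because each condition had 1 library.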
